A study of Mus musculus with 21 samples.

Results

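The S100 genes encode small calcium-binding proteins, and 10 of them were followed here in mouse kidney: S100a1, S100a4, S100a6, S100a8, S100a9, S100a10, S100a11, S100a13, S100a16 and S100g. They were taken by symbol from the gene names that the authors paired with Ensembl identifiers, and all 10 were found among the 21657 genes of the count tables. The samples were kidneys of female apoE KO mice on the C57BL/6J background, so the Apoe deletion was shared by every group and no wild-type mouse entered any comparison. The mice were 4 weeks old at the start, were fed for 14 weeks and were 18 weeks old at collection. Control mice (Con, n = 5) ate chow, Ade mice (n = 6) ate chow with 0.2% adenine, which injures the kidney tubules and serves as a diet model of chronic kidney disease, and Ade + IMC mice (n = 6) ate the 0.2% adenine diet with 0.06% iodomethylcholine (IMC). IMC blocks the bacterial enzyme that makes trimethylamine from choline, and the comparison of Ade + IMC with Ade asks whether kidney gene expression under adenine differs when that enzyme is blocked. A further group of 4 mice that received IMC without adenine was not analysed here.

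S100 proteins carry a pair of EF-hand calcium-binding loops and mostly work as dimers. When calcium binds, most of them expose a surface that attaches to partner proteins such as annexins, cytoskeletal proteins and proteases. Some also leave the cell: S100A8 and S100A9 form calprotectin, an abundant protein of neutrophils and monocytes that sequesters metal ions and signals through the receptors TLR4 and RAGE. S100G, also called calbindin-D9k, differs from the rest in that it mainly buffers and ferries calcium through epithelial cells, in the kidney mostly those of the distal tubule.

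The 17 libraries held between 5444833 and 11680809 counted reads, and the Con libraries were the deeper ones by median (8864086, against 7306464.5 in Ade and 6996367.5 in Ade + IMC). Levels are given as normalized counts, that is, counts divided by a size factor set over all 17 mice, and 3 counts in a library correspond to a normalized count between 2.28 and 3.84. The kidney markers Lrp2, of the proximal tubule, and Umod, of the thick ascending limb, were present in every library, at no less than 2737.4 and 15202.5 normalized counts. Apoe, the deleted gene, gave between 46.4 and 200 normalized counts, and no wild-type level was at hand to compare it with.

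Of the 10 genes, 9 lie on chromosome 3 (build GRCm38, GENCODE M21 annotation) and S100g lies on chromosome X at 162961992 to 162964599, on the minus strand, within the Ctps2 gene of the opposite strand, with which it shares 0 exonic bases. S100a1 (90511034 to 90514392, minus strand) and S100a13 (90514435 to 90524581, plus strand) start back to back, with 42 bases between them. S100a16 (90537254 to 90543151), S100a4 (90603771 to 90606045), S100a6 (90612882 to 90624181) and S100a8 (90668978 to 90670035), all on the plus strand, follow in that order, and S100a9 (90692632 to 90695721, minus strand) closes this first cluster. S100a11 (93520488 to 93526287) and S100a10 (93555080 to 93564643), both on the plus strand, form a second pair 2824766 bases further on. S100a4 shares 302 of its 584 exonic bases (51.7%) with the gene model Gm42674 on the same strand, so its counts are uncertain to the extent that reads there were left out or given to the other model.

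Sequences upstream of the annotated starts are shown for genes that moved together or against the rest: S100a8 and S100a9, which rose and fell from mouse to mouse together, S100a11, S100g, the only one of the 10 that was lower under adenine, and the stretch between S100a1 and S100a13, of which one was called higher and the other was not. They come from RefSeq (GRCm38.p6), from a table that held 9 of the 10 genes and not S100a10, and they were cut to bases before the annotated starts. Capitals mark matches, on either strand, to TTNNGNAA, a letter pattern of C/EBP factors, in S100a8, S100a9 and S100g, and to TGANTCA, that of AP-1, in S100a11.
S100a8, chr3:90668821-90668977, plus strand: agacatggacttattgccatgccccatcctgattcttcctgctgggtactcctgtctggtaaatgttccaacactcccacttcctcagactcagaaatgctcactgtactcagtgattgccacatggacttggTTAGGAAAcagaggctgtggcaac
S100a9, chr3:90695722-90695971, minus strand: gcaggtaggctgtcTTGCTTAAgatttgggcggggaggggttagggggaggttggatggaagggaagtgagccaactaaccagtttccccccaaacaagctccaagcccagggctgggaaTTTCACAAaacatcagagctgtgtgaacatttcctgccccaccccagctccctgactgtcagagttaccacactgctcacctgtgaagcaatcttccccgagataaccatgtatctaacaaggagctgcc
S100a11, chr3:93520246-93520487, plus strand: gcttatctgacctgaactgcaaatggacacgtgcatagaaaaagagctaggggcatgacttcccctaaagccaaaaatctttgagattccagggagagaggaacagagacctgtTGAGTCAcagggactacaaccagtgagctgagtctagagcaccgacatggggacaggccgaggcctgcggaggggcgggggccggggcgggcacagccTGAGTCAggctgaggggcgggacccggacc
S100g, chrX:162964600-162964849, minus strand: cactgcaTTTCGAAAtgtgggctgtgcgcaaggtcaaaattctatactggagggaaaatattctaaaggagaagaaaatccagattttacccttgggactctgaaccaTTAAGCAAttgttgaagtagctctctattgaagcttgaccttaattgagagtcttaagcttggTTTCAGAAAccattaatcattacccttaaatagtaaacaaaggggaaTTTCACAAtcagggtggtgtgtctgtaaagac
Between S100a1 and S100a13, chr3:90514393-90514434, plus strand: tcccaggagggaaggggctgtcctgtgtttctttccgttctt

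The C/EBP pattern matched once in the S100a8 stretch, 2 times in that of S100a9 and 5 times in that of S100g, where a pair of matches overlap. It is a common pattern, found in 36.8% of the 32851 mouse promoter windows of 250 bases, and the S100a8 stretch of 157 bases is shorter than those windows. The AP-1 pattern matched 2 times in the S100a11 stretch and once in the second of the S100a16 entries, and is found in 6.75% of the windows. The NF-kB pattern matched in none of the 9 genes with an entry and is found in 1.41% of the windows, and a TATA box, TATAAA (12.4% of windows), matched only upstream of S100a4. A match is a string of letters and not evidence that a factor binds there.

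Adenine feeding was accompanied by higher levels of most S100 genes and a lower level of one. By edgeR's quasi-likelihood test with Benjamini-Hochberg adjustment over 14612 tested genes, 8 of the 10 were higher in Ade than in Con, S100g was lower and S100a1 did not pass the threshold of an adjusted p of 0.1. The response was broad, with 67.3% of all tested genes called (35.1% higher and 32.2% lower), so a call by itself sets no gene apart. The log2 fold changes of S100a9, S100a8, S100a6 and S100a4 ranked above those of 98.5%, 98.2%, 96.4% and 96.0% of all tested genes. S100a8 and S100a9 passed the filter on low counts only through the adenine-fed mice, so their calls and high ranks were bound to follow. Of the 8 genes with at least 10 counts in every Con mouse, 6 were called higher and 1 lower, and their median log2 fold change was 0.68, against 0.02 over all genes. In Ade + IMC against Con, 9 of the 10 passed the filter, S100a8 being left out, and 7 were called higher and S100g lower, where 63.2% of 14578 genes were called (30.9% higher and 32.3% lower). Of the same 8 genes 6 were higher and 1 lower there, with a median log2 fold change of 0.42. In bulk tissue, fewer cells of a type and less RNA per cell cannot be told apart.

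**Figure D1:**
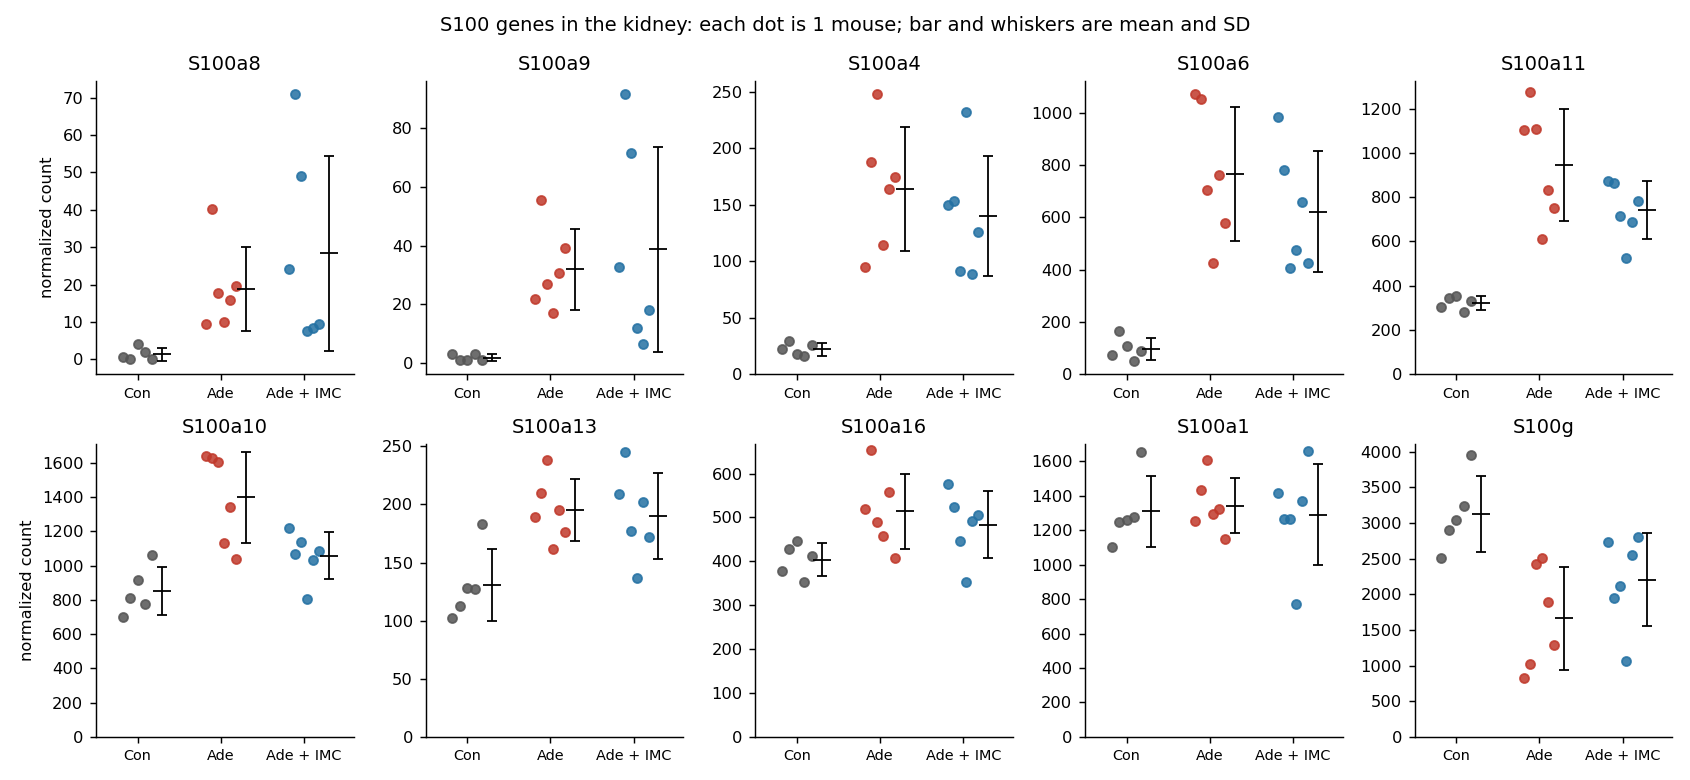
Normalized counts (y axis, from 0) of the 10 S100 genes in each kidney, by diet group (x axis), with 1 dot per mouse and the mean and SD beside the dots. All 12 adenine-fed mice lie above all 5 Con mice for S100a8, S100a9, S100a4, S100a6 and S100a11, the S100a1 groups overlap throughout, and 8 of 12 lie below every Con mouse for S100g.

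The calprotectin genes S100a8 and S100a9 were almost silent in Con kidneys. S100a8 gave 1, 0, 4, 2 and 0 counts in the 5 Con mice, between 10 and 47 in the 6 Ade mice (median 15.5) and between 8 and 79 in the 6 Ade + IMC mice (median 14.5). S100a9, which encodes its partner subunit, gave 4, 1, 1, 3 and 1 counts in Con, between 17 and 65 in Ade (median 28.0) and between 6 and 102 in Ade + IMC (median 22.0). No adenine-fed mouse of either group overlapped the Con mice for either gene after scaling for depth. Such separation was common: 22.0% of all tested genes in Ade and 19.2% in Ade + IMC lay wholly above Con, and 21.5% and 18.2% lay wholly below.

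The log2 fold change of S100a9 in Ade against Con was 4.03 (standard error, SE, 0.429, adjusted p = 3.99e-06), a 16.3-fold difference, and that of S100a8 was 3.74 (SE 0.631, adjusted p = 0.000187), a 13.4-fold difference. Because the Con counts were so few, the ratio of summed counts per depth is loosely fixed: 17.1 for S100a9 (95% exact interval 9.10 to 36.2) and 14.5 for S100a8 (6.81 to 36.8), where the intervals cover counting error only. Without Con replicate 3, which held 4 of the 7 Con counts of S100a8, its log2 fold change was 4.57. In Ade + IMC against Con, S100a9 was 19.3-fold higher (log2 4.27, SE 0.791, adjusted p = 0.00051). S100a8 did not pass the low-count filter in that comparison; fitted without the filter it was 19.2-fold higher (log2 4.26, SE 0.848, adjusted p = 0.00101 by edgeR). S100a8 counts were below S100a9 counts in 11 of the 12 adenine-fed mice, with ratios from 0.435 to 1.33.

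Of the 14 neutrophil markers listed, 4 could be tested in Ade against Con, and all 4 were higher, as were the 3 that could be tested in Ade + IMC against Con. Of all tested genes 35.1% were called higher in Ade and 30.9% in Ade + IMC. Padi4, Mmp9 and Ltf, with 3, 29 and 32 counts over all Con mice, passed the low-count filter through the adenine-fed mice, so their calls were bound to follow and the count of 4 is only a description. Csf3r, with 10 counts in its lowest Con mouse, also passed only with the adenine-fed mice. Padi4, which citrullinates histones in neutrophils, rose most (log2 4.83, SE 0.532, adjusted p = 5.41e-06), followed by the gelatinase Mmp9 (3.50, SE 0.46, adjusted p = 2.49e-05) and Csf3r, the receptor for G-CSF (3.48, SE 0.229, adjusted p = 6.23e-08). The markers with values, 8 of 14, summed to between 22.0 and 41.4 normalized counts in Con, 189 and 363 in Ade and 153 and 355 in Ade + IMC, and none was at 0 in a whole group. Ly6g, the most specific of them, had no values here. The part of neutrophil number in the S100a8 and S100a9 results was not tested.

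The pair varied more between Ade + IMC mice than any other S100 gene. S100a9 ranged from 6.38 to 91.5 normalized counts in that group (coefficient of variation 90.0%, n = 6) and S100a8 from 7.74 to 70.9 (92.3%), against 43.5% and 59.6% in Ade. Ade + IMC replicates 2 and 3 had the highest level of both genes of all 17 mice, with 70.9 and 49.1 for S100a8 and 91.5 and 71.6 for S100a9.

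S100a4 and S100a6 rose to a similar degree. S100a4, which binds non-muscle myosin and is found in fibroblasts and in leukocytes, gave 22.0, 29.6, 17.4, 15.8 and 25.7 normalized counts in the Con mice. It gave 94.7 to 248 in Ade (median 170) and 88.3 to 232 in Ade + IMC (median 138), so that neither adenine group overlapped Con. The log2 fold change was 2.91 in Ade (SE 0.262, adjusted p = 8.78e-07), or 7.54-fold, and 2.66 in Ade + IMC (SE 0.277, adjusted p = 6.34e-06), or 6.31-fold.

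S100a6, also called calcyclin, binds annexin A2 and is expressed by proliferating and epithelial cells. Its levels were 72.8, 164, 108, 51.3 and 87.1 normalized counts in Con, 427 to 1070.4 in Ade (median 733) and 406 to 985 in Ade + IMC (median 566). Again every adenine-fed mouse lay above every Con mouse. It was 8.16-fold higher in Ade (log2 3.03, SE 0.304, adjusted p = 2.41e-06) and 6.42-fold higher in Ade + IMC (log2 2.68, SE 0.308, adjusted p = 1.31e-05).

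S100a11 and S100a10 are annexin partners: S100A11 binds annexin A1 and S100A10, or p11, binds annexin A2, and with it gathers plasminogen activation at the cell surface. S100a11 gave 303, 343, 352, 280 and 331 normalized counts in Con, 613 to 1275.9 in Ade (median 969) and 524 to 874 in Ade + IMC (median 750), with no overlap with Con. It was 3.01-fold higher in Ade (log2 1.59, SE 0.173, adjusted p = 4.79e-06) and 2.3-fold higher in Ade + IMC (log2 1.20, SE 0.125, adjusted p = 6.25e-06). S100a10 was already well expressed in Con, at 698, 811, 915, 776 and 1064.5 normalized counts. It reached 1041.1 to 1640.7 in Ade (median 1472.5) and 806 to 1218.1 in Ade + IMC (median 1078.4), and both groups overlapped Con. The gene was 1.68-fold higher in Ade (log2 0.74, SE 0.147, adjusted p = 0.000643) and 1.24-fold higher in Ade + IMC (log2 0.31, SE 0.119, adjusted p = 0.0431), and the second call was lost without Con replicate 1 (adjusted p = 0.119) or Con replicate 4 (0.104).

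Most of the listed annexins were higher as well, while Anxa11 was lower. Its log2 fold change was -0.48 in Ade (SE 0.102, adjusted p = 0.00108) and -0.34 in Ade + IMC (SE 0.079, adjusted p = 0.00253). Of 19 tested partners and receptors of S100 proteins, 13 were higher and 3 lower in Ade than in Con, where 35.1% of all tested genes were higher and 32.2% lower, and the median log2 fold change of the list was 0.67. The same counts were found in Ade + IMC against Con (median 0.62), beside 30.9% and 32.3% of all tested genes. The annexins Anxa1 (log2 2.50, SE 0.181, adjusted p = 1.32e-07) and Anxa2 (2.01, SE 0.192, adjusted p = 1.54e-06) and the urokinase receptor Plaur (1.62, SE 0.277, adjusted p = 0.000209) had the largest changes of the list. Of the cell surface receptors of calprotectin, Ager, which encodes RAGE, was higher by a log2 fold change of 1.57 (SE 0.284, adjusted p = 0.00033) and Tlr4 by 1.17 (SE 0.182, adjusted p = 0.000102). Cd36, a fatty acid receptor that also binds calprotectin, was lower in Ade (-1.49, SE 0.175, adjusted p = 9.38e-06) and in Ade + IMC (-0.82, SE 0.242, adjusted p = 0.0111). The levels of Ager and Tlr4 stayed low, at no more than 103 normalized counts for Ager and 124 for Tlr4 in any mouse.

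**Figure D2:**
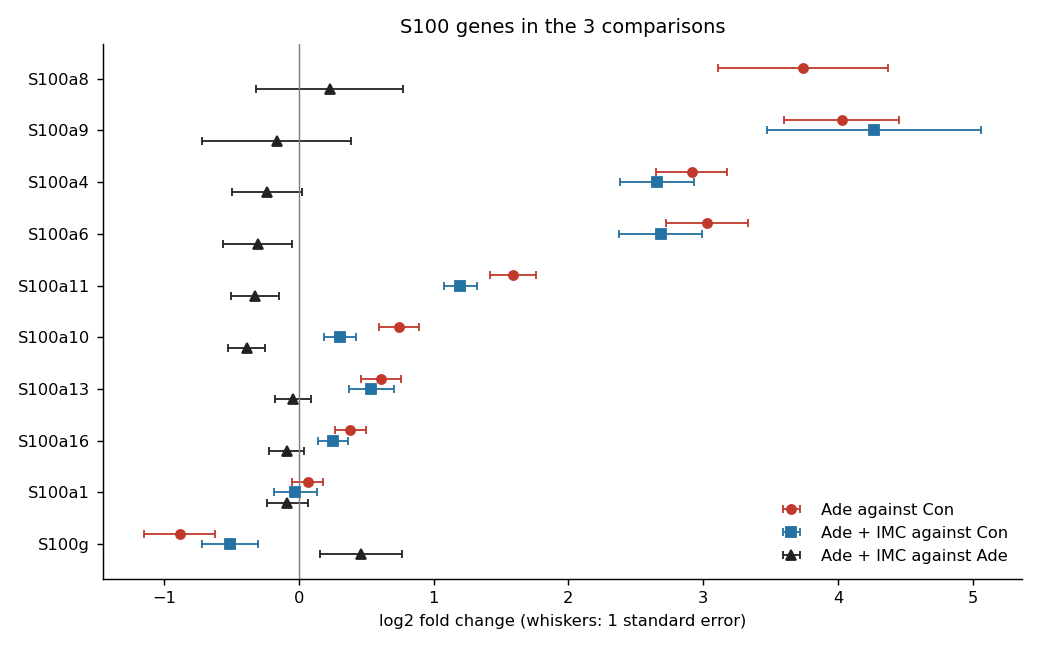
Log2 fold changes (x axis) of the 10 S100 genes (y axis) in the 3 comparisons, with whiskers of 1 standard error. Values in Ade against Con run from -0.88 for S100g to 4.03 for S100a9, and the values of Ade + IMC against Ade lie between -0.39 and 0.46. S100a8 has no value in Ade + IMC against Con because it did not pass the low-count filter there.

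S100a13, S100a16 and S100a1 changed least in Ade against Con, and in Ade + IMC against Con S100a10 and S100g changed less than S100a13. S100a13, which takes part in the release of growth factors that lack a signal peptide, gave 102 to 183 normalized counts in Con, 162 to 238 in Ade and 137 to 245 in Ade + IMC. It was 1.53-fold higher in Ade (log2 0.61, SE 0.147, adjusted p = 0.00277) and 1.45-fold higher in Ade + IMC (log2 0.54, SE 0.166, adjusted p = 0.0139), and Con replicate 5 lay inside both adenine groups. S100a16, broadly expressed in epithelia, gave 353 to 446 in Con, 408 to 653 in Ade and 353 to 577 in Ade + IMC. It was 1.30-fold higher in Ade (log2 0.38, SE 0.116, adjusted p = 0.0112) and 1.19-fold higher in Ade + IMC (log2 0.25, SE 0.113, adjusted p = 0.0727), and the second call was lost without Con replicate 1 (adjusted p = 0.149), 4 (0.173) or 5 (0.104) or Ade + IMC replicate 1 (0.145) or 2 (0.122), and in the fit with no low-count filter (0.103). S100a1, best known as a regulator of calcium cycling in muscle, gave 1105.1 to 1656.7 in Con, 1146.1 to 1609.7 in Ade and 770 to 1657.9 in Ade + IMC. Its log2 fold change was 0.07 in Ade (SE 0.114, adjusted p = 0.629) and -0.03 in Ade + IMC (SE 0.161, adjusted p = 0.904), and the second value was 0.05 with upper-quartile scaling.

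S100a1 and S100a13 start 42 bases apart, on opposite strands, in the stretch printed above. S100a13 passed the test in both adenine groups and S100a1 in neither, and whether their changes differ from each other was not tested. Along the first cluster the fold changes were small at the S100a1 end, where S100a1, S100a13 and S100a16 lie within 22.9 kb, larger for S100a4 and S100a6 at 89.4 and 98.5 kb, and largest for S100a8 and S100a9 at 155 and 181 kb. S100a11 and S100a10, neighbours in the second pair with 28792 bases between them, changed 3.01-fold and 1.68-fold in Ade.

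**Figure D3:**
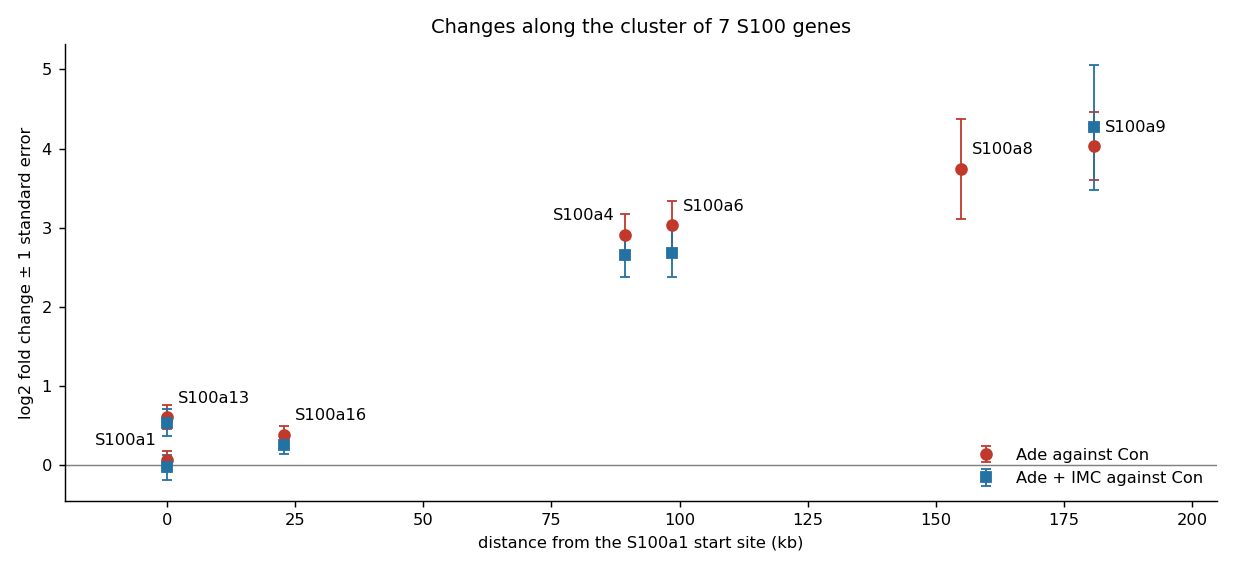
Log2 fold change against Con with 1 standard error (y axis) of 7 S100 genes against the distance of their start from that of S100a1 (x axis, kb), for Ade and Ade + IMC. In Ade the values are 0.07 for S100a1 at 0 kb, 0.61 for S100a13, 0.38 for S100a16 at 22.9 kb and 4.03 for S100a9 at 181 kb.

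S100g moved the other way. It gave 2503.7, 2901.5, 3046.5, 3239.0 and 3954.1 normalized counts in Con, 826 to 2514.4 in Ade (median 1590.9) and 1057.9 to 2797.3 in Ade + IMC (median 2335.4). In Ade 5 of 6 mice lay below every Con mouse, and in Ade + IMC 3 of 6 did. The level was 1.84-fold lower in Ade (log2 -0.88, SE 0.262, adjusted p = 0.00998) and 1.43-fold lower in Ade + IMC (log2 -0.51, SE 0.209, adjusted p = 0.0509), and the second call was lost without Con replicate 5 (adjusted p = 0.125), with upper-quartile scaling (0.107) and in a fit of all 17 mice (0.155).

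Of 16 tested genes of distal calcium transport and its control, 10 were lower and 2 higher in Ade than in Con (median log2 fold change -0.69), and the numbers, though not all the genes, were the same in Ade + IMC. Of all tested genes 67.3% were called in Ade against Con (32.2% lower and 35.1% higher). Most of the 10 lower genes regulate calcium or serve other tasks of the tubule, such as the vitamin D receptor Vdr (-1.38) and the co-receptor Kl (-1.54). Of the genes that carry or bind calcium on its way through the cell, Calb1 and the exchanger Slc8a1 (-0.55, SE 0.262, adjusted p = 0.0851) were lower, Trpv6 was higher, and Trpv5 and the pumps Atp2b1 (0.11, adjusted p = 0.471) and Atp2b4 (0.12, adjusted p = 0.464) were not called. Vdr, Kl, Slc8a1 and both pumps, like Anxa11, Cd36 and Ltf above, were named after their values were seen. Calb1, which encodes calbindin-D28k, the other calbindin of this segment, fell by 0.54 on the log2 scale in Ade (SE 0.192, adjusted p = 0.026) and gave a value of -0.22 in Ade + IMC (SE 0.193, adjusted p = 0.34). Trpv5, the channel through which calcium enters these cells, gave -0.10 in Ade (SE 0.141, adjusted p = 0.58). Parvalbumin, Pvalb, fell by 1.76 (SE 0.369, adjusted p = 0.00101). The 2 higher genes were Cyp27b1, the enzyme that makes active vitamin D (2.11, SE 0.272, adjusted p = 2.07e-05), and the channel Trpv6 (1.79, SE 0.297, adjusted p = 0.000163).

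Markers of other parts of the nephron were read beside S100g. All 10 proximal tubule markers were lower in Ade, led by Slc5a12 (-2.87), Lrp2 (-2.65) and Acsm2 (-2.58), with summed levels of 126724.8 to 179994.2 in Con, 17102.2 to 70688.2 in Ade and 30546.4 to 62881.6 in Ade + IMC. Of 8 markers of other segments 5 were lower and 3 not called. They were led by Slc26a4 (-1.52), Aqp2 (-1.28) and Slc12a1 (-1.06), with sums of 41154.5 to 72831.2, 21797.5 to 48361.8 and 42163.4 to 62753.9. Both lists stand beside 67.3% of all tested genes called in Ade, 32.2% lower and 35.1% higher. The part of a loss of distal tubule cells in the S100g result was not tested.

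Markers of cells that enter or change in the injured kidney rose beside the higher S100 genes. The counts below stand beside 35.1% of all tested genes called higher in Ade and 32.2% called lower. All 12 macrophage and leukocyte markers were higher in Ade, led by Lyz2 (log2 4.64), Itgam (4.09) and Itgax (3.65), and their summed level was 1984.4 to 2205.6 in Con, 11750.0 to 20330.9 in Ade and 10243.1 to 19374.9 in Ade + IMC. All 12 fibroblast markers were higher, led by Col1a1 (4.20), Col3a1 (4.13) and Col1a2 (3.07), with sums of 4630.6 to 5385.6, 27298.9 to 35029.4 and 20277.0 to 32717.2. All 12 markers of injured tubule were higher, led by Havcr1 (8.22), which encodes KIM-1, Krt20 (7.25) and Lcn2 (6.96), with sums of 17165.9 to 20952.1, 51199.9 to 157393.0 and 31840.8 to 103619.8. Krt20 and Havcr1, with 6 and 20 counts over all Con mice, passed the filter only through the adenine-fed mice, so their calls were bound to follow. Lcn2 and Krt19, with 10 and 7 counts in their lowest Con mouse, also passed only with the adenine-fed mice. Krt19 was named after its counts were seen. The count of 12 injured tubule markers is thus only a description. The 5 red cell markers were lower, led by Hbb-bs (-2.28), Hbb-bt (-2.26) and Alas2 (-2.19), with sums of 1397.9 to 1886.5, 117 to 776 and 609 to 1655.8. None of these markers was at 0 in a whole group, and the part of any of these cells in the S100 results was not tested. Of the other S100 and fused-type genes 3 could be tested: S100a14, expressed in epithelia, was higher (2.18, SE 0.497, adjusted p = 0.00182) but had only 42 counts over all Con mice and passed the filter through the adenine-fed mice, so its call was bound to follow, the fused-type gene Tchh was lower (-0.73, SE 0.124, adjusted p = 0.000195) and one was not called.

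Per kilobase of exon, the order of levels between the 10 genes shifted. In Con, S100g made up 63.4% of their summed level per kilobase, followed by S100a1 (18.3%) and S100a10 (6.84%), and its range lay above that of S100a1. In Ade the share of S100g was 34.9% and its range overlapped that of S100a1 (19.5%), which in turn overlapped S100a11 (18.7%). S100a11 and S100a10 overlapped in Con and in Ade, with S100a10 ahead in Con (704 and 630 per kilobase) and S100a11 ahead in Ade (1854.6 and 1153.3). In Ade + IMC their ranges lay apart, with S100a11 at 1025.0 to 1710.5 and S100a10 at 665 to 1005.0 per kilobase. S100a6 made up 0.688% in Con and 5.64% in Ade. In Ade + IMC the share of S100g was 45.2%, that of S100a1 18.3% and that of S100a11 14.3%. S100a9 and S100a8 came last in every group, at 0.731% and 0.403% or less.

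Across the 12 adenine-fed mice, after each group's mean was subtracted, the S100 genes fell into sets that moved together. The values below describe these libraries: the genes share each library and its depth, so no test was made. S100a8 and S100a9 were closest (Pearson r = 0.95, Spearman rho = 0.958, and r = 0.899 without the 2 mice farthest from the median). S100a10 and S100a11 came next (r = 0.901, rho = 0.93, and 0.911 without the 2 farthest), and their r with S100a16 was 0.79 and 0.786 (0.481 and 0.72 without the 2 farthest). The r of S100a4 with the other 9 lay between -0.27 and 0.141. Without the 2 farthest mice it lay between -0.454, with S100g, and 0.401, with S100a6, and it turned from -0.27 to 0.376 with S100a1. S100g came closest to S100a1 (0.672, but 0.439 without the 2 farthest).

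**Figure D4:**
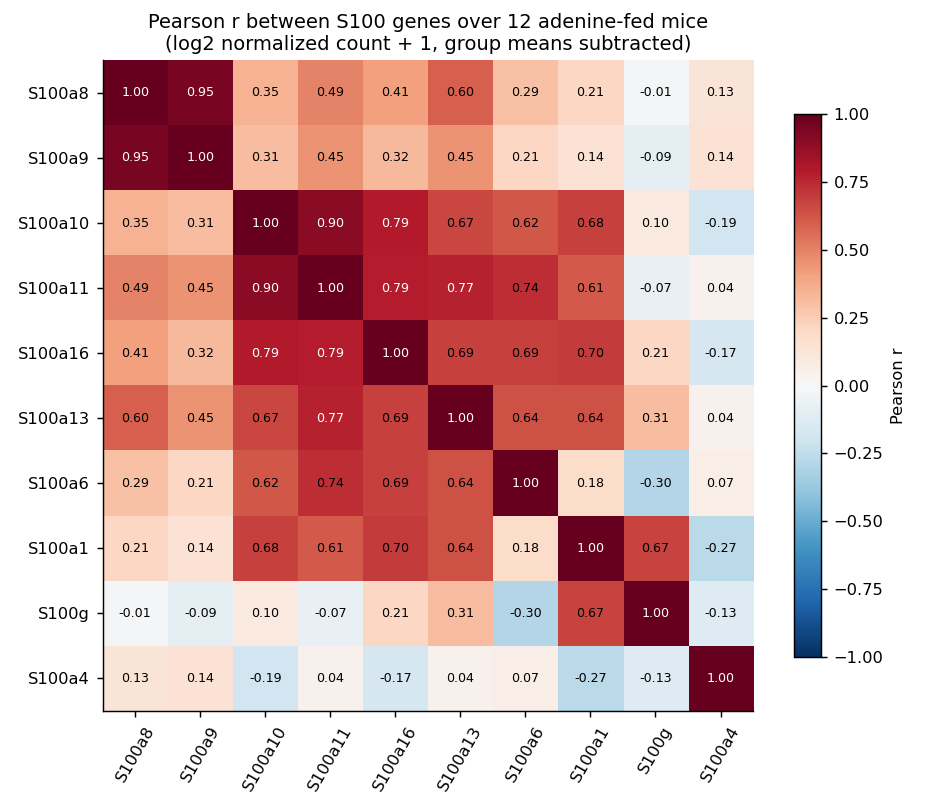
Pearson r between the 10 S100 genes over 12 adenine-fed mice, from log2 normalized counts plus 1 with group means subtracted (colour and printed value). S100a8 with S100a9 (0.95) and S100a10 with S100a11 (0.90) stand out, and the S100a4 row lies between -0.27 and 0.14.

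Among 14696 genes, with the 10 S100 genes left out of the ranking, those most like S100a8 were Il1f9 (r = 0.938), which encodes the epithelial cytokine IL-36 gamma, Il1b (0.928), which encodes interleukin 1 beta, and Aoc1 (0.915), a diamine oxidase. For S100a9 they were Il1f9 (0.942), Il1b (0.907) and Hcar2 (0.893), a receptor for hydroxybutyrate on myeloid and other cells. For S100g they were Guca2b (0.976), which encodes uroguanylin, Klk1 (0.976), the tissue kallikrein of the distal nephron, and Dcxr (0.971), a sugar reductase of the tubule. S100a8 and S100a9 went with the summed neutrophil markers (0.82 and 0.863) more closely than with the macrophage markers (0.374 and 0.358), and with the injured tubule markers the values were 0.665 and 0.643. The neutrophil sum here held only the 4 markers averaging 10 or more. By level it was mostly Csf3r and Mmp9, with means of 173 and 62.9 normalized counts in Ade, beside 15.2 for Ltf and 19.1 for Padi4. S100g went with the summed genes of distal calcium transport (0.861), of which Klk1 is one, and with the proximal tubule markers (0.754).

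The nearest genes of S100a6 and S100a4 were named after their values were seen. S100a6 was closest to Anxa2 (r = 0.983, rho = 0.986), the gene of its binding partner, followed by Oit1 (0.972) and Anxa3 (0.943). S100a4 was closest to the class II antigen presentation genes H2-Aa (0.966), H2-Eb1 (0.956) and H2-DMa (0.955), and its r with the summed macrophage markers was 0.843 and with the fibroblast markers 0.392. S100a10 and S100a11 went with the injured tubule markers (0.76 and 0.808), and with the macrophage markers the values were -0.108 and 0.16. The injured tubule sum, used above for S100a8 and S100a9 too, was mostly Spp1 by level. Spp1, named after its values were seen, had a median of 83788.1 normalized counts in Ade, beside 107068.5 for the whole sum.

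**Figure D5:**
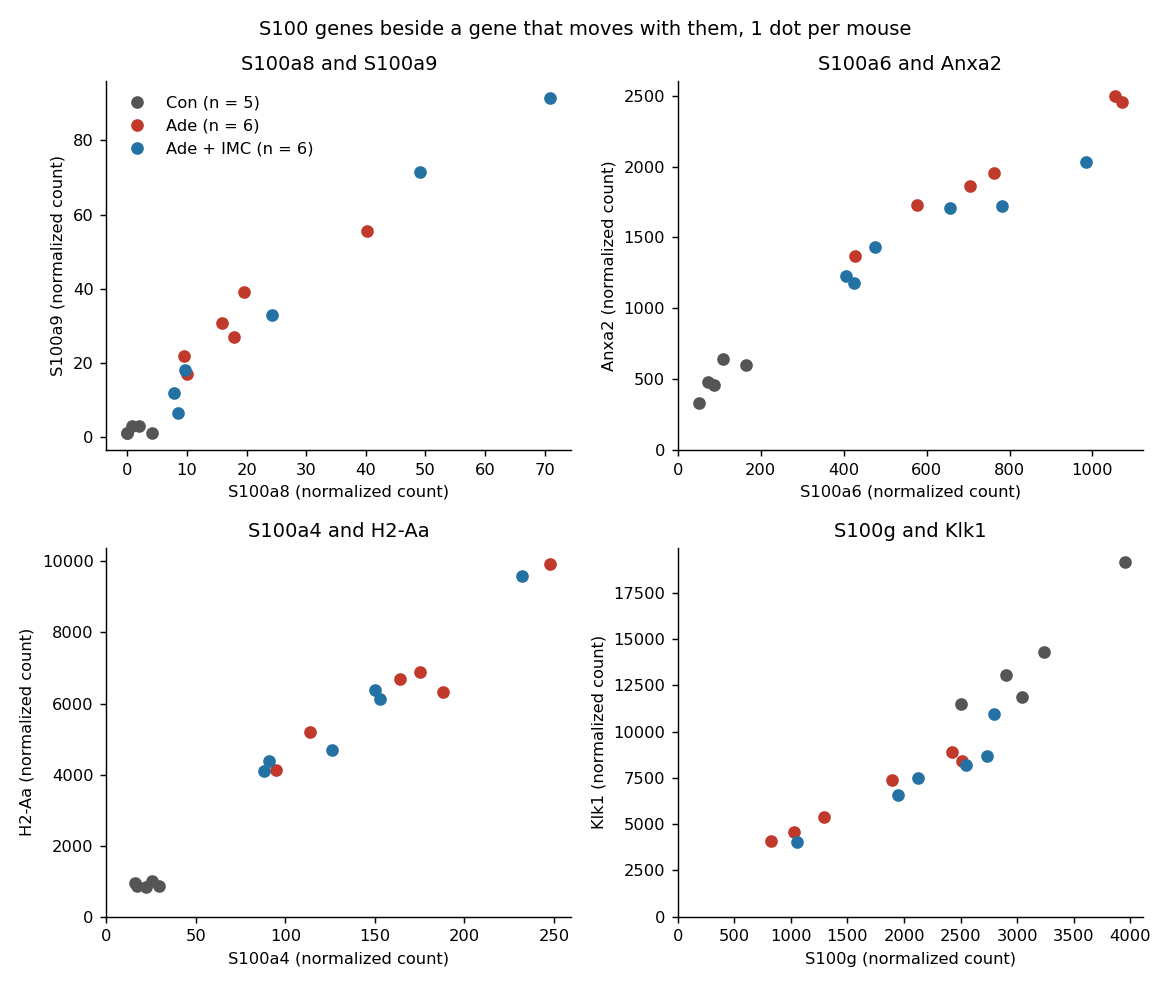
Normalized counts of S100a8 and S100a9, S100a6 and Anxa2, S100a4 and H2-Aa, and S100g and Klk1, with 1 dot per mouse coloured by group. In each panel the Ade and Ade + IMC mice overlap, and the Con mice lie at the low end except for S100g and Klk1, where they lie at the high end.

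When IMC was added to the adenine diet, no S100 gene passed the adjusted threshold in a fit without a block. By limma on log2(normalized count + 1), 0 of 10 were called in Ade + IMC against Ade, as were 0.0% of the 14696 genes tested, and 0 of 10 were called by edgeR and by DESeq2 on the recovered reads. With a block for the leading digit of the mice's numbers, whose meaning is not stated, 133 genes (0.905%) were called by limma, 104 (0.71%) by edgeR and 597 (4.09%) by DESeq2, and of the 10 S100 genes DESeq2 called S100a10 while limma and edgeR called none. Without adjustment 1 of the 10, S100a10, had a p below 0.05, against 3.37% of all genes in the higher and 3.35% in the lower direction. The estimates of 8 were lower and of 2 higher, with a median log2 difference of -0.13, against 0.01 over all genes. Ade and Ade + IMC ranges overlapped for all 10 genes, while 0.116% of all genes lay apart in the higher and 0.0885% in the lower direction.

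S100a10 gave the smallest p. On the deposited scale its levels were 1022.1 to 1637.5 normalized counts in Ade and 798 to 1206.9 in Ade + IMC, and 2 of 6 Ade + IMC mice lay below every Ade mouse. The log2 difference was -0.39 (SE 0.134, p = 0.0122, adjusted p = 0.711), and a two-sided exact permutation test over all 924 splits of the 12 mice gave p = 0.0281 (the smallest it can give is 0.00216). The mice carry numbers that start with 2, 3 or 4, with no stated meaning. Within those starts the Ade + IMC mean was lower by 500, 610 and 106 normalized counts, and splits restricted to them gave an exact permutation p of 0.0167. With these starts as a block the adjusted p of S100a10 was 0.16 by limma, 0.167 by edgeR and 0.0527 by DESeq2 (log2 -0.41), the last below the threshold of 0.1. The permutation p-values were not adjusted for the 10 genes looked at.

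S100a11, the nearest gene of the family to S100a10, gave a log2 difference of -0.33 (SE 0.178, adjusted p = 0.751), with an exact permutation p of 0.113, or 0.0444 within number starts. Its difference was -328 and -475 normalized counts among mice numbered from 2 and 3 and 9.06 among those numbered from 4. S100a6 gave -0.31 (SE 0.258, adjusted p = 0.83, exact permutation p = 0.323), with differences of -187, -256 and -44.5 normalized counts within the number starts and an exact permutation p of 0.0611 within them. S100a4 gave -0.24 (SE 0.258, adjusted p = 0.883). S100g gave 0.46 (SE 0.302, adjusted p = 0.787, exact permutation p = 0.193), with differences of 1395.1, -806 and 778 within the number starts, so that its direction was not shared. The only Ade mouse numbered from 3 was replicate 3, so every difference given for that start rests on it. The calprotectin genes gave 0.23 for S100a8 (SE 0.544, adjusted p = 0.951) and -0.16 for S100a9 (SE 0.552, adjusted p = 0.965), and neither sign was stable. S100a8 turned to -0.13 without Ade + IMC replicate 2 and to -0.03 without replicate 3. S100a9 turned to 0.02 without Ade replicate 2 and to 0.05 and 0.22 without Ade + IMC replicates 4 and 5.

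Of the partners, calcium transport genes, other S100 genes and cell markers, 0 were called in Ade + IMC against Ade by limma or by edgeR without the block. DESeq2 without the block, which called 0.253% of all genes, called Vcam1 and Sox9 of the injured tubule list lower and Aqp2 and the red cell gene Alas2 higher. With the block, limma and edgeR called 0.905% and 0.71% of all genes. Each called Vcam1, Sox9 and Aqp2 and 4 of the 5 red cell markers in those directions, and none of the partners, calcium transport genes or other S100 genes. DESeq2 with the block, which called 4.09% of all genes, called 5 of 12 injured tubule markers lower and 5 of 5 red cell markers higher. It also called 2 of 19 partners, Cd36 higher and Trp53 lower, and 3 of 16 calcium transport genes, Calb1, Pvalb and Kl, all higher. In the same fit 2 of 12 macrophage and 1 of 12 fibroblast markers were lower. There 1 of 10 proximal tubule markers and 3 of 8 markers of other segments were higher. Vcam1, Sox9 and Trp53 were named after their values were seen. By limma without the block, Anxa2 gave a log2 difference of -0.35 (SE 0.163, adjusted p = 0.742), Ager -0.24 (adjusted p = 0.82), Tlr4 -0.08 (0.932), Calb1 0.35 (0.785) and Trpv5 -0.18 (0.866). The median difference of the injured tubule list was -0.59 and that of the red cell list 1.56 in the same fit. Ade and Ade + IMC were compared with the same 5 Con mice above, so their values against Con are not independent of each other.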

How the data were processed

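Kidney RNA of 17 mice (5 Con, 6 Ade and 6 Ade + IMC) was sequenced by the authors as 50 bp single reads from Illumina TruSeq libraries and mapped to mm10. The methods name the STAR aligner, whereas the submitters' processing notes name Trimmomatic 0.39, FastQC 0.11.8, Bowtie2 2.2.5, HTSeq 0.9.1 and DESeq2, and the annotation release and use of strand are not given in the sources used here. The raw gene counts of Con and Ade mice were used as deposited. For Ade and Ade + IMC mice the deposited signal values are counts that the authors divided by DESeq2's median-of-ratios size factors, and 100% of them came back as whole reads (tolerance 0.01). A deposited table of the authors' own comparison of these 2 groups (fold changes, test statistics and p-values) was used for gene names only. There were 21004 genes with raw counts, 21287 with normalized counts and 20634 with both.

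Ade was compared with Con, and Ade + IMC with Con, by edgeR 4.0.16 (TMM, filterByExpr, quasi-likelihood test, R 4.3.3), the second on raw and recovered reads of genes in both tables. Ade + IMC was compared with Ade by limma-trend (limma 3.58.1) after a log2 transform with a pseudocount of 1, for genes averaging 10 or more over the 12 mice, and such differences understate the change of low genes. P-values were Benjamini-Hochberg adjusted over all genes tested, and an adjusted p below 0.1 counted as a call. Standard errors of edgeR are the log2 fold change divided by the square root of F. Levels by mouse were scaled over all 17 mice by median of ratios, and two-sided exact permutation tests went through every split of the mice. SciPy gave Spearman rho and the exact counting intervals. Fits were tested on simulated data. DESeq2 1.42.0, other scalings, filters and pseudocounts, a block for the first digit of the mouse number, and leaving out each mouse were tried.

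The 10 S100 genes and all gene lists were chosen with earlier results of these data known. Named were these 10 genes, the 3 genes most like S100a8, S100a9 and S100g, the 3 called genes of each list with the largest change in Ade against Con, and Anxa2, Ager, Tlr4, Calb1, Trpv5 and Ly6g. Replicates are separate mice, numbered in accession order. Depth, 5444833 to 11680809 counts, sets the precision, and counting intervals take the reads as independent.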

Additional observations from a re-analysis of the deposited data

Results flagged for a closer look

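One value stood apart from its group. S100a8 in Ade replicate 2 reached 40.2 normalized counts, where the other 5 Ade mice lay between 9.47 and 19.6, and the gap to the nearest of them was 0.67 of the range of the group. Of the 30 combinations of gene and group tested this way 1 was far out, and chance alone gives about 1 in 20. The same mouse had the highest S100a9 level of its group, 55.6 normalized counts. Without it the log2 fold changes in Ade against Con were 3.35 for S100a8 and 3.79 for S100a9.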

How the results depend on the processing

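In Ade against Con none of the 70 alternative values of the 10 genes, nor of the 110 with 1 mouse left out, changed direction or crossed the threshold. Ade + IMC against Ade depended on the block for the first digit of the mouse number and on the tool. Over all genes 0 were called by limma and by edgeR, 38 by DESeq2, 133 by limma with the block, 104 by edgeR with the block and 597 by DESeq2 with the block, and 1 of the 10 S100 genes was called only in the last of these fits (S100a10, log2 -0.41, adjusted p = 0.0527). The digit has no stated meaning, and the cause was not tested. Some small differences changed sign. In Ade + IMC against Con, S100a1 was 0.053 with upper-quartile scaling and 0.013 in the fit of all 17 mice, and ran from -0.084 to 0.093 with 1 mouse left out. In Ade + IMC against Ade, S100a9 was 0.276 by edgeR, 0.282 by DESeq2 and 0.001 by edgeR with the block. With 1 mouse left out, S100a9 ran from -0.513 to 0.217, S100a8 from -0.129 to 0.478, S100a13 from -0.121 to 0.046 and S100a1 from -0.167 to 0.059. In Ade + IMC against Con, calls of S100a10, S100a16 and S100g were lost under 13 alternatives in all, 2 of them the stricter threshold of 0.05 (S100a16 and S100g), and those of S100a4, S100a6, S100a9, S100a11 and S100a13 in none, though S100a9 did not pass the low-count filter, and so had no value, in 5 of the 6 fits that left out an Ade + IMC mouse. The replicate numbers follow accession order and pair no mice, so the block for the digit was the one grouping across diets that was fitted. Depth limits S100a8 and S100a9 most, with 7 and 10 counts in all Con mice together.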
